A study of Mus musculus with 10 samples.

Results

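The comparison described here asks, gene by gene, whether macrophages labelled Tlr4 knockout (KO) answered a culture medium differently from macrophages labelled wild type (WT). It is the genotype by medium interaction: the log2 change of KO cells in the control medium against untreated KO cells, minus the same change in WT cells. It rests on 8 of the 10 libraries of the series, 2 in each of 4 groups, all from macrophages that C57BL/6 mouse marrow precursors gave rise to in culture (bone marrow derived macrophages). The 4 groups were WT untreated, WT control, KO untreated and KO control, where KO carries the Tlr4 -/- genotype and WT is unmodified at that locus per the labels. Control cells were collected after 6 h in medium holding 5% FBS (fetal bovine serum) and 2% BSA (bovine serum albumin). The labels give neither a medium nor a time for untreated cells, so handling, fresh medium, serum and albumin cannot be told apart within a response. The remaining 2 libraries, KO cells given the double-stranded RNA mimic Poly(I:C), entered the model only to estimate the spread and are set beside the members at the end. The labels do not say whether the 2 libraries of a group came from separate animals or cultures, and p-values therefore reflect only how far these libraries scatter, which may be technical.

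TLR4 sits at the macrophage surface with the co-receptor MD-2, receives bacterial lipopolysaccharide from CD14, and signals through the adaptors MyD88 and TRIF. The MyD88 arm activates NF-kB and the MAP kinases, which switch on cytokine genes, while the TRIF arm activates IRF3 and interferon beta, whose own receptor then switches on interferon-stimulated genes. Macrophages activated this way raise glycolysis and itaconate and nitric oxide production, hold back proliferation, and rearrange cholesterol and fatty acid handling under the control of SREBP, LXR and PPAR transcription factors.

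Levels are in CPM, the deposited value as a share of its library's scaled total. Changes are differences of log2(CPM + 0.1), and this pseudocount makes those of low genes too small. Where a pair of values is given for a group, they are replicates 1 and 2. A gene was called when the Benjamini-Hochberg adjusted p of limma, over all 13171 genes kept, was under 0.05. Summed deposited values were 25218442 to 26688278 in 6 of the 8 libraries and 41950344 and 41102369 in the WT control libraries. The values are scaled reads, so these sums are not sequencing depth, which is unknown. Replicates correlated at 0.992 to 0.994 on the log2 CPM scale across genes. All 23 macrophage identity genes stood above 1 CPM in every group, and their summed level was 33340 to 37610 CPM in the 8 libraries. Tlr4 RNA itself (chromosome 4, 66827584 to 66930284, GRCm38) was present under both labels, at 60.2 and 68.9 CPM in the untreated WT libraries, 32.2 and 38.6 in WT control, 44.3 and 44.9 in untreated KO and 30.8 and 34.6 in KO control. A single value per gene cannot tell reads of the deleted part from the rest, the level is no check of the knockout, and the genotypes are taken as labelled.

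The 2 genotypes answered the control medium very differently. The interaction was called for 6039 of 13171 genes (45.9%), with 3105 lower in KO cells (23.6%) and 2934 higher (22.3%). A further check without adjustment gave 6975 genes with p under 0.05. All 6039 kept their sign with each of the 8 libraries left out in turn, and all 6039 had the same sign in the authors' rlog table. These genes were selected on the same libraries, which the rlog table also holds, so neither count is independent support. The interaction reached 1 log2 unit in either direction in 3022 of them, of which 1547 were lower and 1475 higher. This split depended on how the libraries were scaled: with library totals alone 1695 genes were lower and 6518 higher, and with the deposited scaling 3819 were lower and 2060 higher. With totals alone 484 of the 6039 changed sign. The median interaction of all genes was 0.04 in the scaling used here, 0.52 with totals alone and -0.12 with the deposited scaling, so group statements below are read against the median of all genes under each scaling.

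Most interaction genes differed by the test in the control medium, and few did before it. Before the medium 22 genes were called between the genotypes (0.167%), and 16 of those had a called interaction. With 2 libraries a group, genes not called may still have differed, and untreated means of interferon-stimulated genes are given below. After the medium 8053 genes differed (61.1%), and 5902 of the 6039 interaction genes were among them. The genotype difference was larger in the control medium than in untreated cells for 5944 of the 6039.

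WT cells changed broadly and KO cells changed little. In WT cells 4326 genes rose (32.8%) and 4354 fell (33.1%), against 1431 risen (10.9%) and 1192 fallen (9.05%) in KO cells. The middle 50% of genes spanned log2 changes of -0.64 to 0.56 in WT and -0.22 to 0.22 in KO cells, and a change of at least 1 log2 unit was seen in 4015 genes in WT and 573 in KO cells. The median standard error was 0.13 for both responses, which the spread shared by all groups in the fit makes equal. Genes that rose at least 4 log2 units in WT cells numbered 160, with a median rise of 4.88 in WT and 0.82 in KO cells, and 159 of them had a called interaction. The median gene of this set kept 14.8% of the WT log2 response in KO cells. For the 568 genes that rose 2 to 4 units the median share kept was 11.2%, and for the 497 genes that fell 2 to 4 units it was 16.8%. These sets were chosen by the WT response, which enters the share, so the shares are a description.

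**Figure D1:**
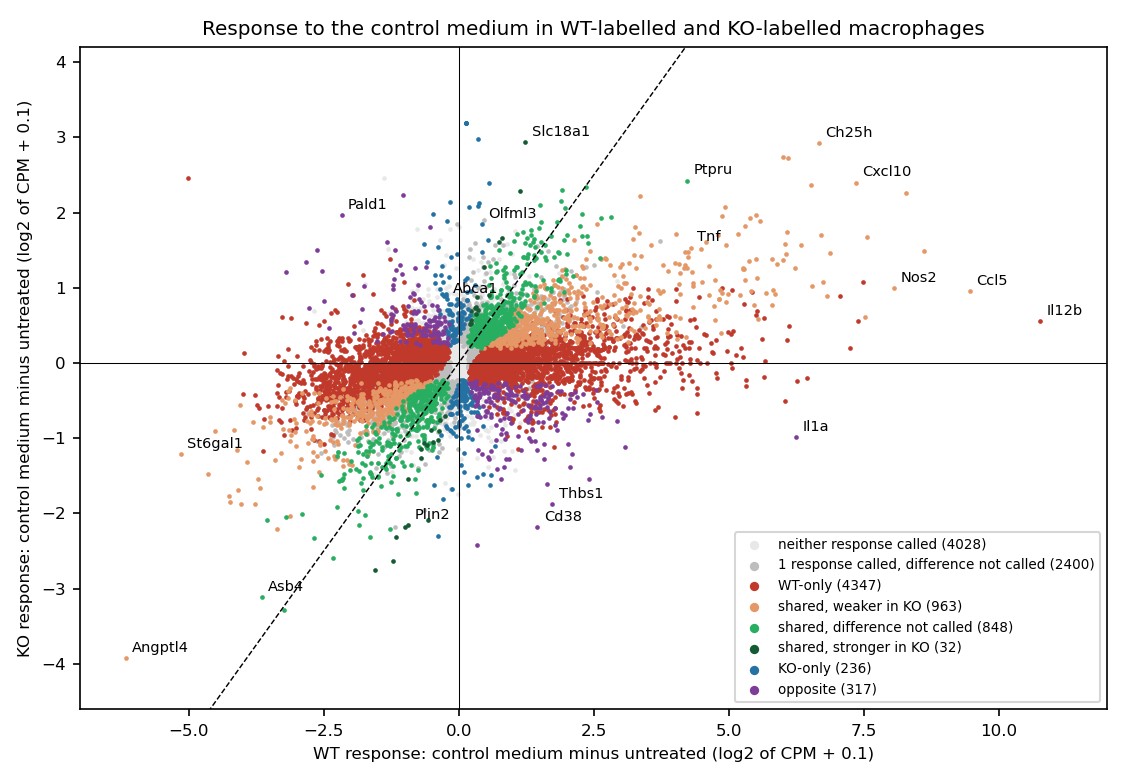
Each point is 1 of the 13171 genes, with the WT response on the x axis and the KO response on the y axis, both as log2 of CPM + 0.1, control medium minus untreated. Colours give the response class, the 144 genes with a called interaction but no called response are counted among those with neither response called, and the dashed line marks equal responses. The cloud is wide along the WT axis, to 10.76 for Il12b, and flat along the KO axis, so most coloured points lie near the horizontal axis (WT-only, 4347 genes).

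Sorting the genes by which responses were called gave unequal classes. A response was WT-only, with the WT change called, the KO change not called and the interaction called, for 2125 genes that rose in WT cells and 2222 that fell. These 2 counts depended on the scaling, at 1094 and 5126 with totals alone and 2804 and 1599 with the deposited scaling. The reverse, KO-only, held 113 genes that rose and 123 that fell in KO cells. Both genotypes moved the same way in 1843 genes: the difference was not called in 848, KO cells responded less in 963 and more in 32. Opposite responses, called in both genotypes, were found in 198 genes that rose in WT and fell in KO cells and in 119 with the reverse pattern. In 2400 genes 1 response was called and the difference was not, so they are assigned to neither genotype. The classes that need a called KO response rest on few libraries. Leaving out KO untreated replicate 2, KO control replicate 1 or KO control replicate 2 brought the KO-only genes that rose to 67, 60 and 46, the KO-only genes that fell to 58, 66 and 61, the opposite genes that rose in WT to 89, 101 and 88, and those that fell in WT to 40, 35 and 28. The last number was 61 without KO untreated replicate 1. Without the same 3 libraries the shared genes with no called difference numbered 423, 506 and 398, and the shared genes with a weaker KO response 496, 497 and 390, or 521 without KO untreated replicate 1. The 32 genes with a stronger KO response became 21, 20 and 19, or 19 without either WT control replicate.

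Among the components that receive and pass on the lipopolysaccharide signal, 21 of 32 genes had a lower response in KO cells (65.6%, against 23.6% of all genes), 3 had a higher one (9.38%, against 22.3%) and the median interaction was -0.47, which turned to 0.02 with totals alone, where the median of all genes was 0.52. Cd14, the lipopolysaccharide co-receptor, was at 161 and 165 CPM in untreated WT libraries and 1072 and 1015 in WT control, against 156 and 142 in untreated KO and 217 and 201 in KO control. It rose in both genotypes, by 2.68 log2 in WT and 0.48 in KO cells, an interaction of -2.19 (SE 0.11, limma adjusted p = 5.65e-07). Myd88, the adaptor shared by most Toll-like receptors, went from 69.7 and 72.8 to 294 and 336 CPM in WT and from 66.7 and 62.5 to 99.3 and 97.5 CPM in KO cells. It too rose in both, with an interaction of -1.53 (SE 0.11, limma adjusted p = 3.93e-06). Tlr3, the receptor for double-stranded RNA, was a WT-only gene, at 11.4 and 11.2 CPM in untreated and 88.6 and 105 in control WT cells and between 9.90 and 11.1 CPM in all 4 KO libraries. Its interaction was -3.04 (SE 0.16, limma adjusted p = 7.18e-07). Tlr7, the receptor for single-stranded RNA, also had a lower KO response (interaction -1.68, SE 0.14, limma adjusted p = 9.14e-06). Tlr4 itself fell in WT cells (log2 -0.87, limma adjusted p = 0.000419) and had a log2 change of -0.45 in KO cells (limma adjusted p = 0.0536). The interaction of Tlr4 was 0.42 with a 95% interval of -0.04 to 0.87 and was not called (limma adjusted p = 0.124). It was called with totals alone (0.90, limma adjusted p = 0.00162) and with the replicate block (0.42, limma adjusted p = 0.0256). The 3 members with a higher KO response were Irak1 (0.38), Irak4 (0.43) and Tab1 (0.73), kinases and a kinase partner just below MyD88, named after their values were seen.

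Inflammatory cytokines and chemokines had the lowest median interaction of the lists with more than 1 tested member. Of 32 measured members 31 were lower in their KO response (96.9%, against 23.6% of all genes) and 0 were higher, and the median interaction was -3.63, with median responses of 4.29 log2 in WT and 0.34 in KO cells. In WT cells 31 of the 32 rose, where 32.8% of all genes did. In KO cells 13 rose and 2 fell, where 10.9% and 9.05% of all genes did. The member that did not pass was Cxcl5, a neutrophil-attracting chemokine (WT -0.14, KO -1.68, limma adjusted p of the interaction = 0.0911).

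Il12b, which encodes a subunit shared by 2 interleukins, had the lowest interaction of all named genes at this pseudocount. It was at 0.0314 and 0.0989 CPM in untreated WT, 337 and 233 in WT control, 0.196 and 0.227 in untreated KO and 0.396 and 0.324 in KO control libraries. WT control libraries stood alone, with no overlap with any of the other 6. The WT response was 10.76 log2 and the KO response 0.56, an interaction of -10.20 (SE 0.33, limma adjusted p = 4.6e-08), which was -7.88 with a pseudocount of 1, where that of Ccl5 was lower (-8.21). Ccl5, a chemokine that draws T cells and monocytes, went from 1.32 and 2.51 to 1207 and 1521 CPM in WT and from 1.67 and 1.46 to 3.23 and 3.01 CPM in KO cells. The rise was called in both genotypes, and the KO rise was weaker, with an interaction of -8.50 (SE 0.32, limma adjusted p = 9.04e-08).

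Il6, the cytokine interleukin 6 (chromosome 5, 30013114 to 30019981, GRCm38), was at 0.878 and 0.495 CPM in untreated WT, 134 and 123 in WT control, 0.294 and 0.454 in untreated KO and 0.627 and 0.5505 in KO control libraries. Only the WT control libraries were high. The WT response was 7.40 log2, the KO change of 0.56 was not called (limma adjusted p = 0.128), and the interaction was -6.84 (SE 0.33, limma adjusted p = 4.72e-07). The RefSeq promoter window of Il6 is printed because, of the 8 genes with the lowest interaction, it alone held the NF-kB or interferon response letters searched, among the 5 of those 8 with a window in the table. It spans 250 bases before to 50 after the start site, chr5:30012864-30013163 of GRCm38.p6, plus strand, with the letters GGATTTTCC of an NF-kB match in capitals, at -43 to -35 from the start site.
Il6: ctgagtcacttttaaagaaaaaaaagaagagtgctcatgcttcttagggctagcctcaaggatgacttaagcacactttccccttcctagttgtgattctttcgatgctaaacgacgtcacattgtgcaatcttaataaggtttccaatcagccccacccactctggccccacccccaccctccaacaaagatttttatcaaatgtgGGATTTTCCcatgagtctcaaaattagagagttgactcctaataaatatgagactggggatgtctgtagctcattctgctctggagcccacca
The same window holds the AP-1 letters TGANTCA at -249 to -243. A letter match is a description and not a bound site.

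Promoter letters were counted on both strands in the 7917 tested genes with exactly 1 such window. The interferon response letters AAANNGAAA occurred in 8.45% of all these windows and in 23.9% of the 373 windows of genes that rose in WT cells with an interaction of -2 or lower. NF-kB letters (GGANTTTCC) were in 1.48% of all windows and 6.43% of that set, and AP-1 letters (TGANTCA) in 5.04% and 14.2%. For the 177 genes that fell in WT cells with an interaction of 2 or higher the shares were 5.08%, 0% and 4.52% in the same order. CRE letters (TGACGTCA) stood at 3.36% of all windows, 1.34% of the first set and 2.82% of the second, and E2F letters (TTTGGCGC) at 1.04%, 0.804% and 2.82%. Both thresholds of 2 log2 units were chosen with the values known, and no test was run on these shares.

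Tnf and Il10 rose in KO cells too. Tnf, the cytokine tumour necrosis factor, rose from 57.6 and 54.1 to 1097 and 1095 CPM in WT and from 46.6 and 50.7 to 133 and 149 CPM in KO cells. Every control library lay above every untreated one, and both KO control libraries lay far below both WT control libraries. Its interaction was -2.76 (SE 0.11, limma adjusted p = 1.19e-07). Il10, an anti-inflammatory cytokine, behaved likewise, from 11.7 and 9.202 to 54.8 and 57.5 CPM in WT and from 10.7 and 10.02 to 21.5 and 21.3 CPM in KO cells, with one of the smallest interactions of the list, -1.38 (SE 0.16, limma adjusted p = 6.77e-05). Il1b, the precursor of interleukin 1 beta, was at 7.87 and 12.1 CPM in untreated WT, 1064 and 991 in WT control, 9.7 and 12.5 in untreated KO and 32.1 and 40.1 in KO control libraries, an interaction of -5.00 (SE 0.27, limma adjusted p = 7.06e-07). Il1a, its relative interleukin 1 alpha, went the other way in KO cells: 0.784 and 1.68 to 99.9 and 91.5 CPM in WT, 1.01 and 1.49 to 0.528 and 0.615 CPM in KO. The KO change of -0.99 log2 was called (limma adjusted p = 0.037), and the interaction was -7.24 (SE 0.41, limma adjusted p = 9.28e-07). Csf3, the granulocyte growth factor G-CSF, was WT-only and went from 0.188 and 0.396 to 77.9 and 58.6 CPM in WT and from 0.0327 and 0.162 to 0.198 and 0.421 CPM in KO cells.

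**Figure D2:**
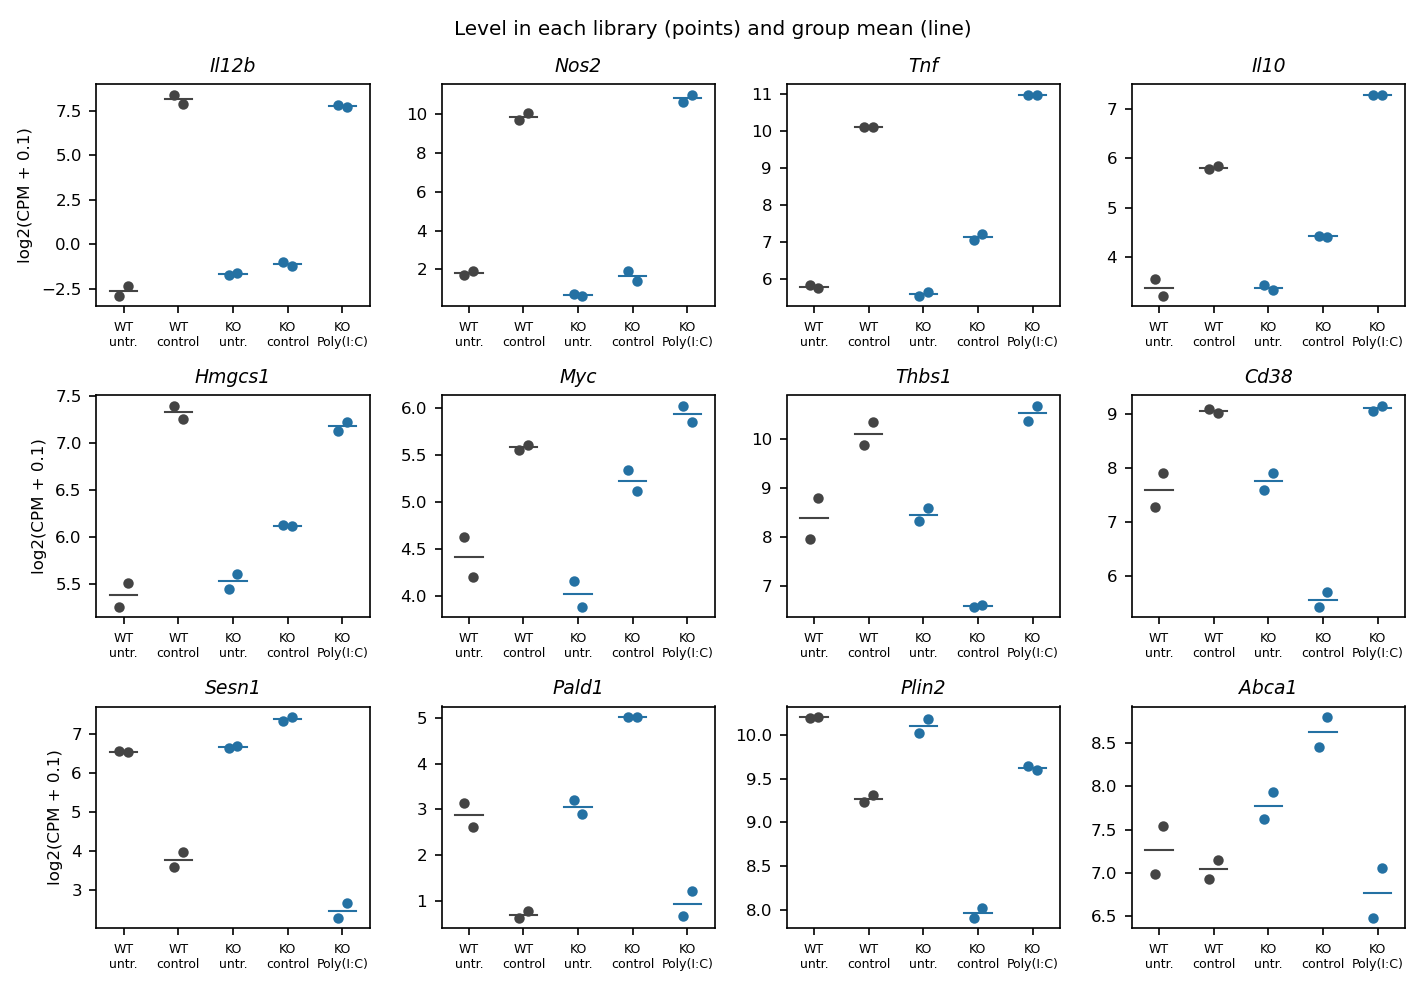
Level of 12 genes in each library, as log2(CPM + 0.1) on the y axis, with WT groups in grey, KO groups in blue and a line at the mean of the 2 libraries of each group. Il12b and Nos2 are high in WT control and KO Poly(I:C) alone, Myc rises about alike in both genotypes (1.17 and 1.21 log2), Thbs1 and Cd38 rise in WT and fall in KO control, and Plin2 falls further in KO than in WT control. The y axes differ between panels and do not start at 0.

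All 50 interferon-stimulated genes had a lower response in KO cells (100%, against 23.6% of all genes), with a median interaction of -2.67 and median responses of 3.21 log2 in WT and 0.58 in KO cells. Each also had a lower mean in untreated KO than in untreated WT cells, such as Ifit2 (95.6 against 176.7 CPM), Irf7 (49.76 against 93.21) and Irf1 (47.3 against 49.63). Most of these untreated differences were not called. In WT cells 50 of 50 rose, where 32.8% of all genes did. In KO cells 26 also rose and 1 fell, where 10.9% and 9.05% of all genes did. So 23 were WT-only, 26 were shared and weaker, and Irf8 was opposite. Over all genes 16.1% were WT-only and rose, and 4.38% rose in both and less in KO cells. Ifi205, an interferon-inducible DNA-binding protein of the Ifi200 family, was at 2.73 and 3.33 CPM in untreated WT, 849.9 and 1115 in WT control, 0.914 and 1.95 in untreated KO and 6.497 and 7.06 in KO control libraries, an interaction of -6.03 (SE 0.37, limma adjusted p = 1.55e-06). Gbp2 and Gbp5, guanylate-binding proteins that attack intracellular microbes, had interactions of -4.76 (SE 0.14, limma adjusted p = 3.71e-08) and -5.40 (SE 0.16, limma adjusted p = 3.71e-08). Gbp2 still rose from 15.3 and 14.9 to 44.95 and 45.3 CPM in KO cells, against 23.3 and 22.8 to 1679 and 2066 CPM in WT cells. Cxcl10, a chemokine induced by interferon, rose from 8.78 and 7.75 to 1207 and 1548 CPM in WT and from 5.55 and 3.89 to 22.3 and 27.9 CPM in KO cells, an interaction of -4.96 (SE 0.24, limma adjusted p = 4.72e-07). Oasl1, an antiviral protein that restrains Irf7 translation, was WT-only (13.6 and 20.9 to 761 and 959 CPM in WT, 7.35 and 10.8 to 11.7 and 15.7 CPM in KO). Ifnb1, which encodes interferon beta, was low throughout at this collection time: 0 and 0.0989 CPM in untreated WT, 0.92 and 1.45 in WT control, listed at 0 in both untreated KO libraries and at 0.06596 and 0 in KO control. Its interaction of -2.79 became -1.003 with a pseudocount of 1. The smallest interactions in the list were those of Irf8 (-0.94) and Irf9 (-0.68), both called.

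Most genes of a mixed list of NF-kB subunits and brakes on signalling rose in WT cells and responded less in KO cells. Of 30 members 27 had a lower KO response (90%, against 23.6% of all genes) and 1, the deubiquitinase gene Otulin, a higher one (0.34), with a median interaction of -1.82. Here KO cells kept a called rise in 18 of 30, against 29 in WT cells, where 10.9% and 32.8% of all genes rose. Of the members 17 were shared and weaker and 8 WT-only, classes that held 4.38% and 16.1% of all genes among those that rose. Il1rn, the secreted antagonist of the interleukin 1 receptor, was WT-only (89.9 and 96.5 to 1545 and 1477 CPM in WT, 63.1 and 73.1 to 75.6 and 84.01 CPM in KO, interaction -3.79, SE 0.13, limma adjusted p = 5.62e-08). Socs3, a brake on cytokine receptor signalling, went from 49.02 and 62.9 to 500.4 and 505 CPM in WT and from 46.5 and 47.5 to 46.6 and 41 CPM in KO cells, where the 4 libraries overlapped. Ier3, a stress-induced survival gene, was opposite, from 23.4 and 30.6 to 134 and 147 CPM in WT and from 25.3 and 17.9 to 13.6 and 11.6 CPM in KO cells (interaction -3.15, SE 0.25, limma adjusted p = 7.04e-06). Nfkbia, which encodes the inhibitor IkB alpha, rose by 2.30 log2 in WT and 0.49 in KO cells. Nfkbiz, an atypical IkB protein, rose in both with an interaction of -0.48.

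Immediate early genes switch on within minutes of many stimuli. Of 28 members 17 were lower (60.7%, against 23.6% of all genes) and 1, Rgs2, higher in the KO response (3.57%, against 22.3%), and 10 did not pass, with a median of -1.03. Egr1, a zinc finger factor, went from 1.91 and 4.12 to 44.9 and 48.9 CPM in WT and from 2.65 and 2.82 to 6.53 and 7.58 CPM in KO cells, rising in both, with an interaction of -2.68 (SE 0.38, limma adjusted p = 0.000294). Maff, a small Maf factor, was WT-only (interaction -3.31, SE 0.27, limma adjusted p = 9.08e-06). Myc, which drives growth and ribosome production, rose in both genotypes by nearly the same amount. It was at 24.5 and 18.3 CPM in untreated WT, 46.97 and 48.8 in WT control, 17.8 and 14.6 in untreated KO and 40.3 and 34.5 in KO control libraries. The 2 genotypes' ranges did not overlap in the control medium, yet the responses of 1.17 and 1.21 log2 gave an interaction of 0.03, with a 95% interval of -0.44 to 0.51 (limma adjusted p = 0.914). Srf and Egr3 were also called in both genotypes with a difference that was not (interactions -0.30 and -0.60).

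Antigen presentation and co-stimulation genes had 18 of 20 members with a lower KO response (90%, against 23.6% of all genes) and 0 with a higher one, at a median of -1.84. Cd40, the co-stimulatory receptor for CD40 ligand, went from 7.402 and 9.07 to 282 and 333 CPM in WT and from 6.401 and 6.68 to 12.5 and 12.2 CPM in KO cells, with an interaction of -4.30 (SE 0.16, limma adjusted p = 8.39e-08). Nlrc5, the transactivator of MHC class I genes, and Cd86, a ligand of CD28, were WT-only, with interactions of -2.83 (SE 0.15, limma adjusted p = 7.18e-07) and -2.41 (SE 0.17, limma adjusted p = 3.9e-06). H2-Ab1, an MHC class II chain, rose by 1.32 log2 in WT and fell by 0.69 log2 in KO cells. Inflammasome and cell death genes had 23 of 30 lower (76.7%, against 23.6% of all genes) and a median of -0.97. The 1 with a higher KO response (3.33%, against 22.3%) was Bcl2l11, a pro-apoptotic BH3-only gene (0.64). Nlrp3, the sensor that assembles an inflammasome, was WT-only, at 48.1 and 39.1 CPM in untreated and 626 and 603 in control WT cells, 43.96 and 44.7 in untreated and 46.2 and 49.1 in control KO cells (interaction -3.72, SE 0.14, limma adjusted p = 8.39e-08). Casp1 and Casp4, inflammatory caspases, rose in both genotypes and less in KO cells (interactions -1.48 and -2.24), and Gsdmd, the pore-forming gasdermin D, rose in WT and fell in KO cells (-1.37). Pycard, the adaptor ASC, fell in both, by 0.59 log2 in WT and by 0.76 log2 in KO cells, with an interaction of -0.17 that was not called.

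Markers of other cell types that marrow cultures can hold differed in how they responded. The summed level of 14 neutrophil markers was 579 to 654 CPM in untreated WT, 1797 to 1819 in WT control, 589 to 595 in untreated KO and 450 to 466 in KO control libraries. Of the 12 tested, 9 had a lower KO response (75%, against 23.6% of all genes) and 0 a higher one, led by Lcn2 and S100a8 (interactions -3.64 and -2.94). Mpo had an interaction of -0.01 that was not called. Ly6g was dropped by the filter for low values across the libraries, so its 0 in KO control is not read as a loss. Stromal and endothelial markers summed to 30.7 to 40.8 CPM in untreated WT, 68.3 to 96.9 in WT control and 30.5 to 35.5 in the 4 KO libraries, with Vcam1, an adhesion molecule, at an interaction of -5.63. Of 8 mast cell and basophil markers only Hdc, the enzyme that makes histamine, was above 0 in any group (from 0.188 and 0.3298 to 30.5 and 34.9 CPM in WT, from 0.131 and 0.227 to 0.429 and 0.486 CPM in KO cells). B cell markers summed to 104 to 117 CPM in 6 libraries and 34.9 to 39.3 CPM in WT control. T and NK cell markers summed to at most 2.13 CPM in these 8 libraries. Dendritic cell markers summed to 5.44 to 9.33 CPM, with 1 lower and 1 higher of 5 tested, and erythroid and platelet markers to 199.6 to 384.8 CPM, with 1 lower of 3 tested, Pf4, a call lost with totals alone (limma adjusted p = 0.874). The part of other cells in the results was not tested, and in bulk RNA fewer cells of a type cannot be told apart from less RNA per cell.

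Enzymes of nitric oxide and itaconate production rose far more in WT cells. Nos2, inducible nitric oxide synthase, was at 3.17 and 3.73 CPM in untreated WT, 828 and 1071 in WT control, 1.53 and 1.43 in untreated KO and 3.63 and 2.56 in KO control libraries. It rose in both genotypes, by 8.06 and 0.99 log2, with KO control libraries at the level of untreated WT cells, and the interaction was -7.06 (SE 0.26, limma adjusted p = 8.39e-08). Acod1, which makes itaconate, rose from 200 and 202 to 7648 and 8141 CPM in WT and from 153 and 175 to 356 and 345 CPM in KO cells, an interaction of -4.20 (SE 0.11, limma adjusted p = 3.46e-08). Of the 13 arginine, nitric oxide and itaconate genes 9 were lower (69.2%, against 23.6% of all genes) and 1 higher in KO cells (7.69%, against 22.3%). Arg1, the arginase of alternatively activated macrophages, is among the 9 but fell in both genotypes and further in KO cells, from 51.6 and 70.4 to 29.02 and 31.2 CPM in WT and from 42.7 and 46.1 to 9.33 and 10.1 CPM in KO (interaction -1.18, SE 0.19, limma adjusted p = 0.000665).

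Of 15 prostaglandin and leukotriene genes 14 had a called interaction (93.3%, against 45.9% of all genes), 6 lower and 8 higher. Ptgs2, cyclooxygenase 2, went from 3.54 and 4.72 to 857 and 689 CPM in WT and from 3.56 and 4.602 to 6.299 and 6.18 CPM in KO cells (interaction -6.91, SE 0.23, limma adjusted p = 4.75e-08), and Ptges, its partner synthase, was WT-only (interaction -4.41, SE 0.20, limma adjusted p = 3.75e-07). Those higher include the leukotriene genes Alox5 (interaction 1.40), Alox5ap (0.39) and Lta4h (0.65), and Ptgs1, the constitutive cyclooxygenase (0.98), each of which fell in WT cells. Hpgd, which breaks prostaglandins down, was opposite. It fell from 2.89 and 1.98 to 0.139 and 0.415 CPM in WT cells and rose from 2.91 and 3.05 to 8.21 and 7.22 CPM in KO cells, an interaction of 4.17 (SE 0.47, limma adjusted p = 7.07e-05), which became 2.55 with a pseudocount of 1.

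Cholesterol synthesis genes responded in both genotypes. Of 24 members 16 rose in WT cells and 14 rose in KO cells, where 32.8% and 10.9% of all genes did. An interaction was called for 50%, against 45.9% of all genes. It was lower in KO cells for 11 (45.8%, against 23.6% of all genes) and higher for 1 (4.17%, against 22.3%). In all, 10 members were shared and weaker in KO cells and 5 were shared with no called difference, classes that held 963 and 848 of all 13171 genes. The median interaction was -0.45, which became 0.03 with totals alone, where the median of all genes was 0.52. Hmgcs1, an early enzyme of the pathway, was at 38.1 and 45.7 CPM in untreated WT, 169 and 153 in WT control, 43.7 and 48.6 in untreated KO and 69.8 and 69.3 in KO control libraries. The untreated groups overlapped, KO control lay above them and WT control was highest, with no overlap between control groups. Responses of 1.94 and 0.59 log2 gave an interaction of -1.35 (SE 0.14, limma adjusted p = 3.9e-05). Idi1, an isomerase of a later step, had an interaction of -1.34. Dhcr7, a reductase of the last step, was the 1 member with a higher KO response, falling from 14.2 and 15.2 to 7.14 and 5.98 CPM in WT cells, with 16.6 and 15.2 CPM in untreated and 15.96 and 15.8 in control KO cells (interaction 1.16, SE 0.18, limma adjusted p = 0.000548). Tm7sf2 fell in both genotypes, by 0.54 log2 in WT and by 0.62 log2 in KO cells.

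LXR targets, which export cholesterol when sterols are plentiful, gave 4 lower and 3 higher of 17 (41.2% called, near the 45.9% of all genes), with a median of 0.07 that turned to -0.10 with the deposited scaling. Ch25h, which makes 25-hydroxycholesterol and is also induced by interferon, went from 0.627 and 0.396 to 59.1 and 63.2 CPM in WT and from 0.523 and 0.0648 to 2.74 and 1.98 CPM in KO cells (interaction -3.75, SE 0.68, limma adjusted p = 0.00141). Abca1, the cholesterol exporter, was KO-only. It was at 127 and 186 CPM in untreated WT, 122 and 142 in WT control, 197 and 245 in untreated KO and 349.9 and 448 in KO control libraries. KO control libraries were the highest, untreated KO libraries came next without overlap, the WT groups overlapped each other, and the interaction was 1.07 (SE 0.32, limma adjusted p = 0.0194). That call was lost with the variance trend off (limma adjusted p = 0.0527) and without WT untreated replicate 2, WT control replicate 1, KO untreated replicate 1 or KO control replicate 2 (limma adjusted p = 0.0613 to 0.0708). Abcg1, its partner, rose by 0.82 log2 in WT and 1.24 in KO cells with a difference that was not called, and Apoe, the apolipoprotein, had an interaction of 0.14 that was not called.

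Fatty acid synthesis genes were split, with 4 lower, 6 higher and 8 not called of 18 (22.2% lower and 33.3% higher, near the 23.6% and 22.3% of all genes), and a median of 0.41. Acsl1, which activates long-chain fatty acids, rose from 40.4 and 39.4 to 299 and 343 CPM in WT and from 39.6 and 41.1 to 52.2 and 50.8 CPM in KO cells (interaction -2.65, SE 0.12, limma adjusted p = 2.63e-07). Fads1, the delta-5 desaturase, fell from 50.9 and 49.7 to 7.33 and 7.73 CPM in WT cells and from 49.02 and 54.4 to 32.7 and 31.3 CPM in KO cells (interaction 2.03, SE 0.13, limma adjusted p = 1.95e-06). Scd2, a stearoyl-CoA desaturase, was opposite: it fell from 60.2 and 96.2 to 47.1 and 44.3 CPM in WT and rose from 60.3 and 71.5 to 112 and 125 CPM in KO cells (interaction 1.58, SE 0.26, limma adjusted p = 0.000754). Fasn, fatty acid synthase, rose alike in both, by 1.13 and 1.19 log2, with an interaction of 0.05 that was not called. Elovl6, an elongase, passed narrowly (interaction 1.33, SE 0.44, limma adjusted p = 0.0323), and its interaction was 0.84 with a pseudocount of 1. The call was lost with the deposited scaling (limma adjusted p = 0.0559) and with no filter (limma adjusted p = 0.0739). It was also lost in 7 of the 8 fits that left out a library (interactions 1.14 to 1.44).

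Fatty acid oxidation and PPAR target genes mostly fell in WT cells, 22 of 30 there and 15 in KO cells, where 33.1% and 9.05% of all genes fell. The interaction was higher in KO cells for 13 (43.3%, against 22.3% of all genes) and lower for 5 (16.7%, against 23.6%), with a median of 0.33. Angptl4, an inhibitor of lipoprotein lipase and a PPAR target, fell in both genotypes. It went from 20.4 and 19.3 to 0.112 and 0.267 CPM in WT and from 19.9 and 23.3 to 1.32 and 1.33 CPM in KO cells, responses of -6.16 and -3.92 log2 and an interaction of 2.24 (SE 0.46, limma adjusted p = 0.0029), which became 0.86 with a pseudocount of 1. Acot1 and Acot2, acyl-CoA thioesterases induced by PPAR alpha, also fell in both and less in KO cells (2.39 and 2.60, or 1.22 and 1.52 with a pseudocount of 1). Pparg itself was WT-only and went from 8.19 and 6.53 to 2.98 and 1.96 CPM in WT and from 6.79 and 6.22 to 8.28 and 9.197 CPM in KO cells (interaction 1.98, SE 0.30, limma adjusted p = 0.00045). Cpt1a, the gatekeeper of mitochondrial fatty acid import, fell further in KO cells, from 179.8 and 172 to 85.5 and 97.3 CPM in WT and from 177 and 194 to 60.6 and 66.1 CPM in KO (interaction -0.60, SE 0.14, limma adjusted p = 0.00526), a call lost with totals alone (-0.12, limma adjusted p = 0.42).

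Lipid uptake, droplet and lipase genes had 10 lower and 7 higher of 23 (43.5% and 30.4%, against 23.6% and 22.3% of all genes), and their median of -0.15 turned to 0.34 with totals alone, against 0.52 for all genes. Dgat2, which makes triglyceride, was WT-only and went from 0.784 and 0.825 to 30.6 and 32.9 CPM in WT and from 0.751 and 0.583 to 0.989 and 0.518 CPM in KO cells (interaction -5.03, SE 0.35, limma adjusted p = 3.09e-06). Olr1, a scavenger receptor for oxidised LDL, rose in both and less in KO cells (interaction -3.46, SE 0.36, limma adjusted p = 4.13e-05). Both Plin2 and Hilpda, which sit on lipid droplets, ended lower in KO than in WT control cells. Plin2, the coat protein of lipid droplets, was at 1179 and 1190 CPM in untreated WT, 602 and 635 in WT control, 1048 and 1169 in untreated KO and 239 and 258 in KO control libraries, with no overlap between the 2 control groups. It fell in both genotypes (log2 -0.94 and -2.16), an interaction of -1.22 (SE 0.11, limma adjusted p = 1.57e-05). Hilpda, which blocks the lipase ATGL on droplets, rose from 16.5 and 22.9 to 59.7 and 61.7 CPM in WT and fell from 16.3 and 16.5 to 5.67 and 4.99 CPM in KO cells (interaction -3.25, SE 0.20, limma adjusted p = 1.35e-06). G0s2, another ATGL inhibitor, fell in both, by 4.03 log2 in WT and by 1.87 log2 in KO cells. Lpl, the lipoprotein lipase, fell in WT and rose in KO cells, with an interaction of 1.17, and Cd36, a fatty acid receptor, had changes of -0.31 in both genotypes.

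Glycolysis and hypoxia-inducible genes had 25 of 28 with a lower KO response (89.3%, against 23.6% of all genes) and 1 with a higher one (3.57%, against 22.3%), at a median of -1.06. Of the 28, 16 were WT-only and rose, a class that held 16.1% of all genes. Slc2a1, the glucose transporter GLUT1, rose from 97.1 and 108 to 627 and 683 CPM in WT and from 90.4 and 78.2 to 122 and 118 CPM in KO cells (interaction -2.17, SE 0.13, limma adjusted p = 1.13e-06). Pfkfb3, which makes the activator of phosphofructokinase, was WT-only and went from 129 and 164 to 797 and 809 CPM in WT and from 134 and 153 to 126 and 141 CPM in KO cells. Hif1a, the hypoxia-inducible factor, rose by 1.71 log2 in WT and fell by 0.41 log2 in KO cells. Vegfa, an angiogenic growth factor and a HIF target, fell in both and further in KO cells, from 72.4 and 84.8 to 32.6 and 35.1 CPM in WT and from 78.1 and 82.1 to 11.4 and 14.5 CPM in KO (interaction -1.42, SE 0.17, limma adjusted p = 0.00011). Of 33 TCA cycle and respiratory chain genes 28 had no called interaction (15.2% called, against 45.9% of all genes). The exceptions were Cycs, cytochrome c (-1.49), Atp5b (-0.31), Idh1 (1.46), Idh2 (0.75) and Mdh1 (0.57), dehydrogenases of isocitrate and malate.

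Proliferation genes gave a median interaction of 1.58, the highest of the lists with more than 2 tested members. Of 40 cell cycle and DNA replication genes 33 fell in WT cells and 4 in KO cells, where 33.1% and 9.05% of all genes fell. The 4 in KO cells are near that share. A higher KO response was called for 32 (80.0%, against 22.3% of all genes) and a lower one for 1, Ccnd2 (2.5%, against 23.6%). WT-only genes that fell numbered 30, a class that held 16.9% of all genes. Bub1b, a spindle checkpoint kinase, was at 74.2 and 43.4 CPM in untreated WT, 9.17 and 5.07 in WT control, 60.3 and 50.1 in untreated KO and 54.8 and 37.3 in KO control libraries. The other 3 groups overlapped, the WT control libraries lay below all other 6, and the interaction was 2.76 (SE 0.44, limma adjusted p = 0.00069). Kif11 and Kif20a, mitotic kinesins, had interactions of 2.46 and 2.65, and Aspm, a spindle pole protein, went from 26.6 and 17.5 to 2.17 and 1.84 CPM in WT and from 22.3 and 19.1 to 24.3 and 15.2 CPM in KO cells. Ccnd2, cyclin D2, rose from 33.6 and 31.6 to 121 and 152 CPM in WT and fell from 19.1 and 20.9 to 7.35 and 7.902 CPM in KO cells (interaction -3.44, SE 0.18, limma adjusted p = 6.07e-07). Pcna and Tyms, replication and nucleotide genes, did not change by the test in either genotype (interactions 0.22 and 0.26).

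**Figure D3:**
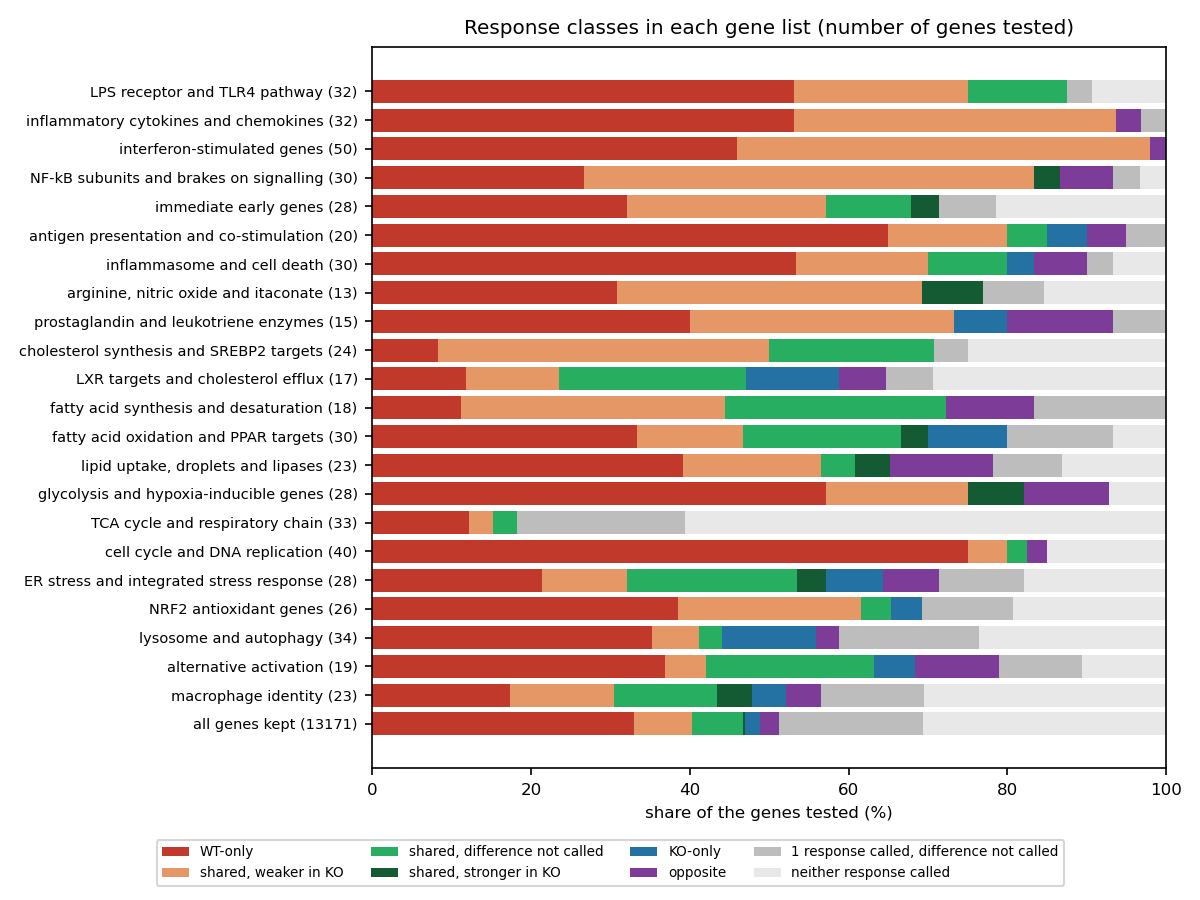
Share of the tested genes of each list, in percent on the x axis, that fell in each response class, with the number tested in brackets and all 13171 genes in the lowest bar. Interferon-stimulated genes and cytokines are almost wholly WT-only or shared and weaker in KO, cell cycle genes are mostly WT-only (30 of 40), cholesterol synthesis holds the shared classes, and 28 of 33 TCA cycle and respiratory chain genes have no called difference.

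NRF2 antioxidant genes, a stress response list, had 15 lower and 2 higher of 26 (57.7% and 7.69%, against 23.6% and 22.3% of all genes) and a median of -0.54. Slc7a11, the cystine importer, went from 27.9 and 37.3 to 466 and 365 CPM in WT and from 29.1 and 37.8 to 54.4 and 45.8 CPM in KO cells. ER stress genes had 9 lower and 5 higher of 28 (50% called), lysosome and autophagy genes 11 and 8 of 34 (55.9%), alternative activation genes 7 and 4 of 19 (57.9%), and macrophage identity genes 7 and 3 of 23 (43.5%), against 45.9% of all genes. The shares lower were 32.1%, 32.4%, 36.8% and 30.4% in that order, against 23.6%. Those higher were 17.9%, 23.5%, 21.1% and 13%, against 22.3%. The median interactions of these lists, -0.22, -0.13, -0.03 and -0.22, turned positive with totals alone (0.27, 0.36, 0.39 and 0.26, against 0.52 for all genes). Trib3, a pseudokinase induced in the integrated stress response, fell alike in both genotypes, from 35.6 and 36.6 to 10.2 and 10.4 CPM in WT and from 29.4 and 22.8 to 10.7 and 6.74 CPM in KO cells. Cebpa, a myeloid lineage factor, was WT-only and went from 31.4 and 38.2 to 8.95 and 7.91 CPM in WT and from 40.9 and 37.3 to 50.5 and 45.3 CPM in KO cells (interaction 2.32, SE 0.18, limma adjusted p = 5.85e-06). Fcgr1, the high-affinity IgG receptor, rose in WT and fell in KO cells (interaction -2.64, SE 0.16, limma adjusted p = 1.33e-06), while Lyz2, Csf1r and Cd68 had interactions of -0.04, 0.07 and -0.17, none called.

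The remaining genes with the highest interactions fell in WT cells. St6gal1, a sialyltransferase, went from 38.5 and 37.2 to 0.976 and 0.978 CPM in WT and from 40.2 and 45.3 to 17.6 and 19.2 CPM in KO cells (interaction 3.93, SE 0.16, limma adjusted p = 1.58e-07). Cmah, which hydroxylates sialic acid, fell from 3.58 and 2.704 to 0.502 and 0.355 CPM in WT and rose from 3.53 and 3.403 to 10.3 and 9.62 CPM in KO cells (interaction 4.11, SE 0.31, limma adjusted p = 4.69e-06). Sesn1, a sestrin that restrains mTORC1, was at 94.5 and 92.4 CPM in untreated WT, 11.9 and 15.5 in WT control, 99.97 and 103 in untreated KO and 163 and 175 in KO control libraries. WT control was the lowest group and KO control the highest, and the interaction was 3.50 (SE 0.20, limma adjusted p = 9.81e-07). Prkag2, a regulatory subunit of AMPK, was WT-only and fell from 15.7 and 15.01 to 1.56 and 1.54 CPM in WT cells. In KO cells it was at 15.8 and 14.7 CPM untreated and 14.7 and 16.3 in the medium. At the other end, Lipg, an endothelial lipase, was at a trace in 6 libraries: it went from 0 and 0.06596 to 10.2 and 12.1 CPM in WT and from 0.0327 and 0.0324 to 0.03298 and 0 CPM in KO cells, and its interaction of -6.64 became -3.57 with a pseudocount of 1. Serpinb2, plasminogen activator inhibitor 2, was WT-only as well (0.596 and 0.627 to 63.5 and 46.5 CPM in WT, 0.359 and 0.389 to 0.231 and 0.389 CPM in KO).

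KO-only responses were few and of moderate size, with a median interaction of 0.69 for the 113 that rose and -0.60 for the 123 that fell. Bcl11a, a transcriptional repressor, was at 1.63 and 2.77 CPM in untreated WT, 1.31 and 1.96 in WT control, 1.83 and 1.72 in untreated KO and 5.28 and 5.41 in KO control libraries. Only KO control stood out, and the interaction was 1.93 (SE 0.36, limma adjusted p = 0.00185). Olfml3, a secreted matrix protein, was likewise highest in KO control, at 28.5 and 28.98 CPM, after 8.52 and 7.36 in untreated KO, and at 8.19 and 5.11 in untreated and 10.2 and 7.55 in control WT libraries (interaction 1.41, SE 0.30, limma adjusted p = 0.0035). Ets1, a transcription factor, and Penk, the enkephalin precursor, had interactions of 1.22 and 1.32. Among those that fell, Gab1, a docking protein for receptor tyrosine kinases, was at 26.4 and 29.1 CPM in untreated WT, 25.6 and 25.3 in WT control, 28.02 and 34.5 in untreated KO and 9.99 and 9.29 in KO control libraries (interaction -1.56, SE 0.16, limma adjusted p = 3.57e-05). KO control was the lowest group, below all 6 other libraries. Kdm6b, a histone H3 lysine demethylase, fell from 32.4 and 26.6 to 11.3 and 11.6 CPM in KO cells and was at 26.1 and 42.1 CPM in untreated and 30.3 and 38.9 in control WT cells (interaction -1.40, SE 0.28, limma adjusted p = 0.00278). Ppp1r3b, which brings a phosphatase to glycogen, fell from 25.9 and 26.7 to 12.9 and 13.4 CPM in KO cells and was at 26.2 and 25.8 CPM in untreated and 28.4 and 25.5 in control WT cells (interaction -1.05, SE 0.13, limma adjusted p = 0.000113). Esr1, the oestrogen receptor, also met the class rule (interaction -1.18, SE 0.38, limma adjusted p = 0.0299). Its call was lost with totals alone (limma adjusted p = 0.13), with no filter (limma adjusted p = 0.0627) and with the trend off (limma adjusted p = 0.0515). It was also lost without WT untreated replicate 1, WT control replicate 1, either KO untreated replicate or KO control replicate 2 (interactions -0.80 to -1.23).

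Genes that changed in both genotypes with no called difference include strong responses. Asb4, an ankyrin repeat and SOCS box gene, fell from 8.5 and 8.08 to 0.641 and 0.504 CPM in WT and from 8.23 and 7.55 to 0.726 and 0.939 CPM in KO cells, an interaction of 0.54 with a 95% interval of -0.10 to 1.18. Both control groups lay far below both untreated groups. Atp2b4, a plasma membrane calcium pump, rose from 4.83 and 4.32 to 22.6 and 22.5 CPM in WT and from 3.89 and 3.79 to 15.1 and 15.8 CPM in KO cells, with an interval of -0.68 to 0.09. Ltb, lymphotoxin beta, rose from 3.58 and 4.02 to 14.5 and 16.9 and from 4.21 and 3.83 to 15.3 and 11.5 CPM, with an interval of -0.82 to 0.20. Satb1, a chromatin organiser, fell from 6.05 and 6.04 to 1.31 and 1.93 and from 6.14 and 5.64 to 1.62 and 1.26 CPM, with an interval of -0.75 to 0.54. Id1, an inhibitor of basic helix-loop-helix factors, had responses of 1.91 and 2.30 log2 but an interval of -0.74 to 1.52, wide enough to hold a difference above 1 log2 unit. Ptpru, a receptor tyrosine phosphatase, did not pass here (interaction -1.81, SE 0.73, limma adjusted p = 0.0667). It did with the deposited scaling (limma adjusted p = 0.0303), a pseudocount of 0.5 (limma adjusted p = 0.00083) or 1 (limma adjusted p = 0.000132), the rlog table (limma adjusted p = 0.00174) and the replicate block (limma adjusted p = 0.0493).

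A stronger response in KO cells was seen in 32 genes, 15 that rose and 17 that fell. Besides Plin2, Vegfa, Arg1 and Cpt1a, these held Slc18a1, a vesicular monoamine transporter, which rose from 0.878 and 0.791 to 2.01 and 2.19 CPM in WT and from 0.751 and 0.616 to 6.2 and 5.57 CPM in KO cells (interaction 1.70, SE 0.27, limma adjusted p = 0.000651). Ednrb, the endothelin B receptor, fell from 55.3 and 86.2 to 41.6 and 52.6 CPM in WT and from 77.9 and 85.9 to 19.4 and 19.1 CPM in KO cells (interaction -1.52, SE 0.28, limma adjusted p = 0.00173). Ccr1, a chemokine receptor, fell from 51.9 and 51.2 to 15.2 and 20.5 and from 48.9 and 49.6 to 6.93 and 7.58 CPM (interaction -1.21, SE 0.18, limma adjusted p = 0.000458).

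Opposite responses gave the clearest change of direction. Thbs1, the matrix protein thrombospondin 1, was at 249 and 445 CPM in untreated WT, 945 and 1300 in WT control, 320.3 and 385 in untreated KO and 94.2 and 97.5 in KO control libraries. The untreated groups overlapped, WT control lay above and KO control below them, and the interaction was -3.61 (SE 0.34, limma adjusted p = 2.24e-05). Cd38, an enzyme that consumes NAD, rose from 155 and 241 to 546 and 516 CPM in WT and fell from 194 and 239 to 43.1 and 52.4 CPM in KO cells, with the same order of groups (interaction -3.64, SE 0.26, limma adjusted p = 3.55e-06). Fcgr2b, the inhibitory IgG receptor, rose from 39.8 and 50.7 to 401 and 358 CPM in WT and fell from 49.8 and 52.7 to 24.5 and 22.9 CPM in KO cells (interaction -4.18, SE 0.17, limma adjusted p = 1.57e-07). Hrh2, the histamine H2 receptor, and Il12rb1, a receptor chain for interleukin 12, did so too (-3.32 and -2.60). In the reverse direction Pald1, paladin, fell from 8.69 and 6.04 to 1.45 and 1.63 CPM in WT and rose from 9.11 and 7.36 to 32.4 and 32.4 CPM in KO cells (interaction 4.14, SE 0.31, limma adjusted p = 5e-06), and Nanos1, a translational repressor, fell from 1.88 and 0.8905 to 0.697 and 0.296 and rose from 2.09 and 2.398 to 5.94 and 8.32 CPM (interaction 2.93, SE 0.61, limma adjusted p = 0.0032). Akap2, an anchoring protein for protein kinase A that lies on chromosome 4 (57717657 to 57896984), as Tlr4 does, had an interaction of -3.94 (SE 0.26, limma adjusted p = 2.36e-06). Unlike the other opposite genes named, it also had a called difference before the medium. Untreated levels were 0.596 and 0.6596 CPM in WT and 5.81 and 7.36 CPM in KO cells, a difference of 3.19 log2 (limma adjusted p = 2.81e-05). In the control medium it was at 3.21 and 4.38 CPM in WT and 2.21 and 2.17 CPM in KO cells.

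**Figure D4:**
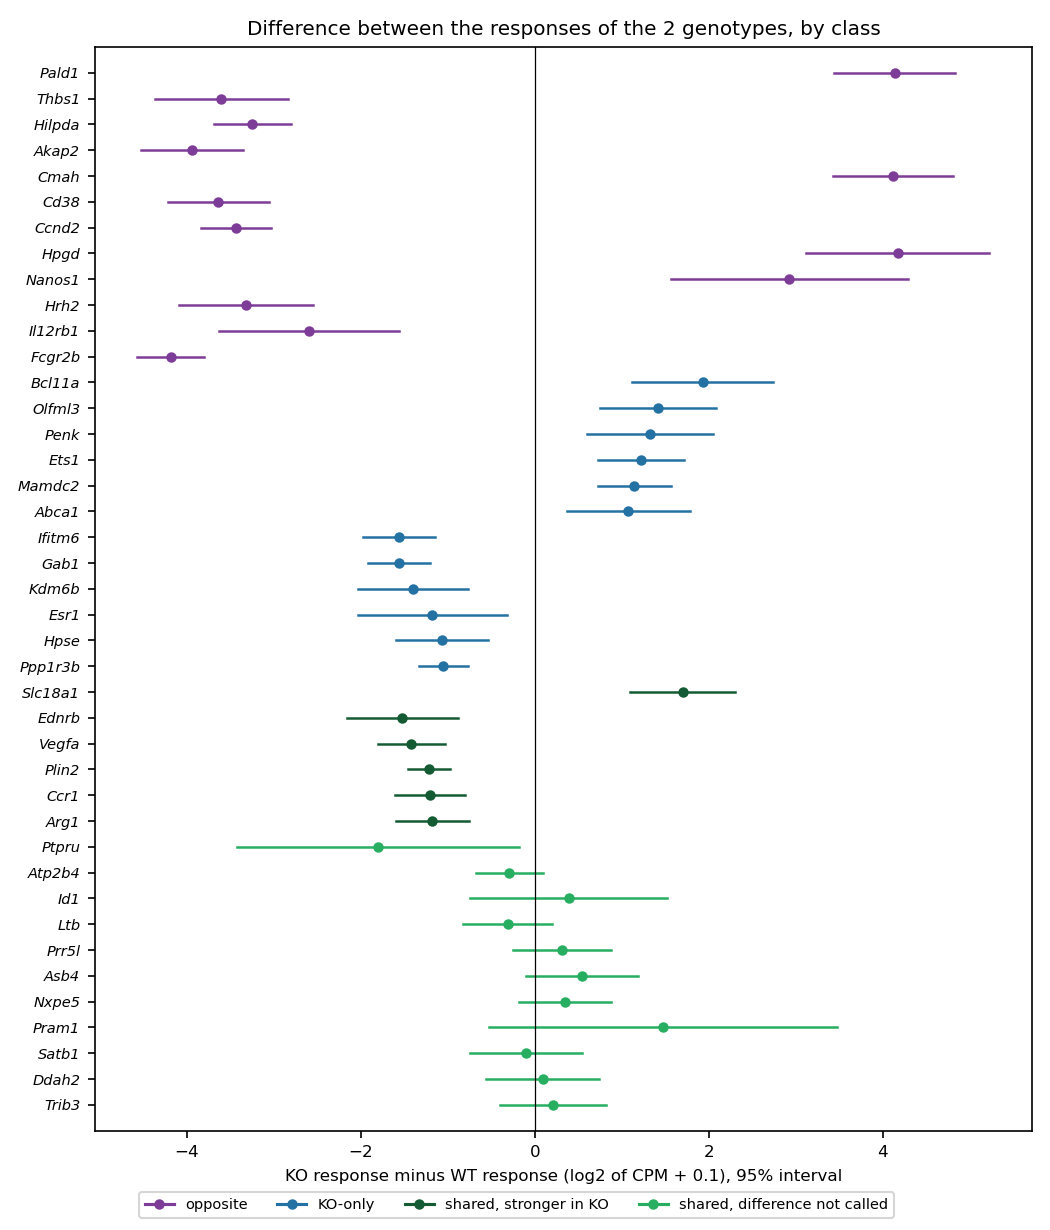
Interaction of 41 genes (points) with its 95% interval (lines) on the x axis, as KO response minus WT response in log2 of CPM + 0.1, ordered and coloured by class. The intervals of the 12 KO-only and 6 stronger genes exclude 0, as the called interaction in their class rules requires. Those of the 12 opposite genes, a class that needs called responses of opposite sign, exclude it too. Among the 11 shared genes shown with no called difference 10 intervals include 0, while that of Ptpru excludes it before adjustment.

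KO cells given Poly(I:C) share their untreated reference with the KO control response, so the values are only set side by side. Their levels were 222 and 209.6 CPM for Il12b, 365 and 322 for Il6, 1591 and 2076 for Nos2 and 1991 and 2007 for Tnf, each far above the KO control libraries. For Ifnb1 they were 33.2 and 29.9 CPM, above the WT control libraries at 0.92 and 1.45. Of the opposite genes that fell in KO control, Thbs1 was at 1331 and 1647 CPM and Cd38 at 530.2 and 569 CPM in these libraries. Of the genes that fell in WT control, Sesn1 was at 4.7 and 6.201 CPM, Hpgd at 0.294 and 0.365 and Bub1b at 6.37 and 5.02, each below untreated KO cells. These genes were picked and do not stand for their classes. Mcm6, which also fell in WT control, had a mean of 103 CPM here and 103.9 CPM in untreated KO cells. Plin2 and Arg1 lay between untreated and control KO cells, at 804 and 780.4 and 24.1 and 25.5 CPM, and Abca1 lay below both, at 88.95 and 134 CPM.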

How the data were processed

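RNA was extracted with a Qiagen RNeasy kit and sequenced from stranded TruSeq mRNA libraries, per the labels' protocols. The submitters' processing notes name the trimmer Trim Galore 0.2.8, the aligner STAR 2.4.0d, the quantifier RSEM 1.2.12 and the package DESeq2. Genome build and annotation: not given in the sources used here. A deposited table named as counts holds a scaled signal: its 75th percentile over 45318 rows is 25 in all 10 libraries, so the authors multiplied reads by 1 factor per library and rounded, depth is unknown, and no count model was run. The second table the authors deposited holds log2 values (rlog) and served as the check.

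Rows below a value of 10 in all libraries, or reaching it in just 1, were dropped, which kept 13171 of 20687 rows above 0. Trimmed mean of M values factors (30% and 5% trims) over the kept genes gave CPM, and limma 3.58.1 (R 4.3.3, with a variance trend) was fitted to log2(CPM + 0.1) with 1 coefficient per group over all 10 libraries, leaving 5 residual degrees of freedom. Contrasts were the WT response, the KO response and their difference, each adjusted by Benjamini-Hochberg over all kept genes at 0.05. The fit was tested on simulated data. Intervals are 95% intervals of the fit. Classes required the calls named in the text.

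Identifiers were matched to GENCODE M21 (44585 of 45318 matched) for names and GRCm38 positions, and promoter windows came from RefSeq (9917 of 13171 kept genes matched by symbol). The comparison, the gene lists and the members were chosen with earlier results of these data known. Named genes were the 8 lowest and 8 highest interactions among protein-coding genes of at least 5 CPM in a group, 6 WT-only and 6 KO-only genes in each direction, 6 shared genes in each direction, 6 stronger in KO, 12 opposite, 4 of each list and 18 fixed ones, and some were left out for length or are not reported here. Other list members named with a value, and the genes named in the closing section alone, were chosen after their values were seen. Alternatives were other scalings, pseudocounts, filters, the rlog table, the variance trend off, the 8 libraries alone, a replicate block, a minimum change of 1 log2 unit, and each library left out.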

Additional observations from a re-analysis of the deposited data

Results flagged for a closer look

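The response to the control medium differed between the genotypes by a test of the difference itself for 6039 genes, described above. Genes named above, such as Il1a, Ier3 and Irf8, had called responses of opposite sign in the genotypes and a called difference. Only the 12 chosen to represent this class are listed here. Those higher in the KO response were Pald1 (4.14 log2, or 3.56 with a pseudocount of 1), Cmah (4.11, or 2.825), Nanos1 (2.93, or 1.97) and Hpgd (4.17, or 2.55). Those lower in the KO response were Fcgr2b (-4.18, or -4.13 with a pseudocount of 1), Akap2 (-3.94, or -2.79), Cd38 (-3.64, or -3.61), Thbs1 (-3.61, or -3.59), Ccnd2 (-3.44, or -3.31), Hrh2 (-3.32, or -2.26), Hilpda (-3.25, or -3.06) and Il12rb1 (-2.60, or -2.30). In each of them both control libraries lay on one side of both untreated libraries in WT cells and on the other side in KO cells. The 12 were selected by called responses of opposite sign in these same libraries, so this order is a description and no further support. The part of any cause in it was not tested. Akap2 alone among the 12 also differed before the medium.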

How the results depend on the processing

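The values are scaled reads from 2 libraries a group, so depth is unknown, and 827 of the 6039 called interactions are under 0.5 log2. Scaling moved the results most. With library totals alone the median interaction of all genes shifted to 0.52 and 484 of the 6039 called genes changed sign, and none did so under any other setting. That setting gave 1695 lower and 6518 higher genes, 1094 WT-only genes that rose and 5126 that fell, 208 KO-only genes that rose and 78 that fell, and 226 opposite genes that fell in WT. It reversed the medians of 9 lists, to 0.022 for the TLR4 pathway, 0.033 for cholesterol synthesis, 0.34 for lipid uptake and droplets, 0.27 for ER stress, 0.36 for lysosome, 0.39 for alternative activation, 0.26 for macrophage identity, 0.20 for erythroid and platelet and 0.27 for dendritic cell markers, all below the 0.52 of all genes. The deposited scaling gave 3819 lower, 2060 higher and 61 opposite genes that fell in WT, and reversed the medians of LXR targets (-0.10) and the TCA cycle (-0.14), while the rlog table did so for alternative activation (0.007). The cause was not tested.

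A minimum of 1 log2 unit left 1547 lower, 1475 higher, 1269 WT-only up, 1208 WT-only down, 30 KO-only up, 30 KO-only down, 179 shared with no difference, 126 shared and weaker, 6 shared and stronger, 14 opposite up in WT and 14 opposite down in WT, since fewer genes can pass. With 1 library left out, and the lone library assumed to vary like the others, there were 2624 to 3041 lower, 2303 to 2793 higher, 1838 to 2207 WT-only up, 1842 to 2137 WT-only down, 46 to 125 KO-only up, 58 to 155 KO-only down, 398 to 870 shared with no difference, 390 to 1018 weaker, 19 to 26 stronger, 88 to 235 opposite up in WT and 28 to 121 opposite down in WT.

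The total called was 5539 to 6084 with median-of-ratios or deposited scaling, a pseudocount of 0.5 or 1, no filter, a minimum of 50, the rlog table, the 8 libraries alone or the trend off. The replicate numbers do not pair samples across genotypes: deviations of same-numbered libraries correlated at 0.172 to 0.306 among the 3 KO groups and 0.315 between the 2 WT groups, but at 0.013 to 0.11 across genotypes. With the replicate block, which assumes 1 replicate effect common to all groups, 6583 genes were called, 6030 of the 6039 among them. The 198 opposite genes that rose in WT became 297. No fit paired the libraries within each genotype separately, so the effect of such pairing was not tested. Calls lost or gained among named genes, beside those in the report, were Pf4 and Lum (lost), and Pram1, Prr5l, Nxpe5, Asb4, Lck, Cd4 and Cebpb (gained), each under at least 1 setting.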

Other observations

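The 22 genes that differed between untreated WT and KO cells include some interferon-inducible genes and some on chromosome 4, which also holds Tlr4. Both kinds were picked out after the values were seen, and neither was tested. Cmpk2, a mitochondrial nucleotide kinase induced by interferon, was at 39.7 and 42.6 CPM in untreated WT and 20.3 and 21.9 CPM in untreated KO cells (-0.96 log2, limma adjusted p = 0.0207), before an interaction of -3.69. Ccl12, a monocyte chemokine, was at 8.15 and 7.36 and 4.38 and 4.602 CPM in the same groups (-0.77 log2) with an interaction of -5.84. Wdfy1, an endosomal adaptor of Toll-like receptor signalling, was at 46.99 and 53.1 CPM in untreated WT and 9.14 and 11.5 CPM in untreated KO cells, with an interaction of -0.90.

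Besides Akap2, Gng10 (59035088 to 59041903) and Ptprd (75941238 to 78211961) lie on chromosome 4 of GRCm38 on either side of Tlr4. Gng10, a G protein gamma subunit, was 0.76 log2 higher in untreated KO cells with an interaction of -0.01 that was not called, and Ptprd, a receptor tyrosine phosphatase, was 3.74 log2 higher with an interaction of 0.62 that was not called. The largest difference of a named protein-coding gene was that of Lrmda, a melanocyte differentiation gene on chromosome 14, at 0.627 and 0.627 CPM in untreated WT and 10.1 and 9.85 CPM in untreated KO cells. The Rpl35a pseudogenes Rpl35a-ps2, Rpl35a-ps3, Rpl35a-ps4 and Rpl35a-ps6 hold identical values and count 4 times among the KO-only genes that rose, although their reads may be shared with near-identical copies.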
